A study of Mus musculus with 12 samples.

Results

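The response of wild-type mouse liver to tunicamycin was read from 6 libraries, 3 from mice given 1 mg/kg tunicamycin and 3 from mice given 0.3% DMSO, the solvent. Both were injected into the peritoneum, and livers were collected after 6 h. All mice are labelled C57BL/6 and wild type, the labels name no transgene or deletion in either group, and the sources used here do not give their age, their sex or whether they were littermates of the study's knockout mice. The 6 libraries of both groups ran on lane 4. The study's other 6 libraries, of 12 in all, come from mice that lack Atf4 in the liver (LsATF4-KO) and do not enter this comparison. A locus was included when the authors' deposited table gives it a gene name and at least 1 FPKM (fragments relative to transcript length and sequencing depth) in either group. That rule took 11352 of 23951 named loci (47.4%), 10391 at 1 FPKM or more in both groups, 431 with tunicamycin only and 530 with DMSO only. Just inside the limit stand Ago4, at 1.00 FPKM in its higher group, and Tnfaip8, also at 1.00, and just outside it B3gnt8 (0.998) and Plk5 (0.997).

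The table gives 1 FPKM per locus and group, for the 3 libraries pooled, so neither the spread between libraries nor their depth can be shown. Statements on change rest on the authors' Cuffdiff test: a locus with a valid test and a deposited q under 0.05 rose or fell, and any other value is given without such a verb. The log2 ratios are those of the deposited FPKM, tunicamycin over DMSO. The labels do not say whether libraries of a group came from separate mice, and if they did not, the q-values measure only spread between libraries. RNA came from whole liver, so fewer cells of a type and less RNA per cell cannot be told apart.

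Tunicamycin blocks the enzyme that starts the lipid-linked sugar chain of N-linked glycosylation, and secretory proteins that lack their sugars then misfold in the endoplasmic reticulum (ER). Misfolded protein in the ER is sensed by ATF6, IRE1 and PERK, whose outputs together are called the unfolded protein response. ATF6 is cleaved into a transcription factor, IRE1 splices Xbp1 mRNA into the form that encodes another, and PERK phosphorylates the initiation factor eIF2, which lowers general translation and favours translation of Atf4 mRNA. Hepatocytes are a classic setting for this response because they secrete most plasma proteins.

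Elements that ATF6, XBP1 and ATF4 are known to bind were looked for near the starts of the genes, and those of well known stress genes are printed here so that the values can be read beside them. Promoters from 250 bases before to 50 bases after the start (RefSeq, GRCm38.p6) were matched by symbol to 8541 of 10756 members with a single name (79.4%), too few for a comparison of classes to count as a check, which is therefore void, and the shares describe the matched members only. The ER stress element, ERSE, was searched on both strands as CCAAT, 9 bases of any kind and CCACG. It is the bipartite site of the factor NF-Y (CCAAT) and of ATF6 or XBP1 (CCACG), and capitals mark both parts in these windows, which are written on the strand that reads CCAAT first.
Derl3, chr10:75893232-75893270, minus strand: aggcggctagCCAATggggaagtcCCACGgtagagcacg
Creld2, chr15:88819510-88819548, minus strand: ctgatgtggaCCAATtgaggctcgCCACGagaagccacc
Syvn1, chr19:6046522-6046560, plus strand: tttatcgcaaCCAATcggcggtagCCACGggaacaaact
Ero1lb, chr13:12565672-12565710, minus strand: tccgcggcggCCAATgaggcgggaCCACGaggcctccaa
Dnajc3, chr14:118937817-118937855, plus strand: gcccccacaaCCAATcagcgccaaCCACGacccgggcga
Calr, chr8:84847065-84847103, plus strand: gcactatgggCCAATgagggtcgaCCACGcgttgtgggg
Pdia6, chr12:17266481-17266519, plus strand: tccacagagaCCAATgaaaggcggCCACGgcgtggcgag
Hspa5, chr2:34772015-34772053, plus strand: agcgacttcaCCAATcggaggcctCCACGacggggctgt
Hspa5 is the textbook target and has no readable value with tunicamycin. The Derl3, Creld2, Ero1lb and Calr matches lie on the strand opposite to the gene and the others on its own strand. Of the 8536 tested members with a promoter 13 held an exact ERSE (0.152%), and so did 39 of 32851 promoters in the table (0.119%). For each element a member counts once if any of its promoters matches, while the share of all promoters counts each promoter. Of these 13 members 12 rose, 1 fell and 0 were not called. The site occurs in 12 of 1857 rises (0.646%), in 9 of 306 rises of at least 4-fold (2.94%) and in 7 of 118 of those of at least 8-fold (5.93%). Each of these classes lies within the one before it. Creld2 and the mannosyltransferase gene Alg12 are neighbours that start in opposite directions, and the same 19 bases on chromosome 15 are the ERSE of both. The further rises with the site were the calnexin gene Canx (log2 ratio 0.81), the imprinting zinc finger gene Zfp57 (5.05), the ribonucleoprotein gene Hnrnpa3 (1.93) and the deadenylase gene Pan2 (0.92), and the fall was Acacb, an acetyl-CoA carboxylase (-2.73).

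The compact variant ERSE-II, searched as ATTGG, 1 base of any kind and CCACG, was found in 8 tested members, of which 6 rose, 0 fell and 2 were not called. The C/EBP-ATF response element, CARE, is the site bound by ATF4 with a C/EBP partner and by CHOP, and was searched as TGATGNAA on both strands. The windows of 6 stress and amino acid genes, and of Herpud1, which has ERSE-II as well, are written on the strand of the match with the matched bases of the element in capitals.
Herpud1, chr8:94386367-94386397, plus strand: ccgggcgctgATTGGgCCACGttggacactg
Herpud1, chr8:94386307-94386334, minus strand: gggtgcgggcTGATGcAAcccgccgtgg
Nupr1, chr7:126625563-126625590, plus strand: aagccctgtcTGATGcAAtctggccctt
Atf3, chr1:191183426-191183453, plus strand: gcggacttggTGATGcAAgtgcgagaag
Asns, chr6:7693215-7693242, minus strand: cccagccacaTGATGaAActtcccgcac
Pycr1, chr11:120643834-120643861, minus strand: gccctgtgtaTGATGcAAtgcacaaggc
Chac1, chr2:119351039-119351066, minus strand: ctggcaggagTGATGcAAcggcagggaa
Fgf21, chr7:45615612-45615639, plus strand: cctggacggaTGATGcAAtgggggggtc
All genes of these CARE windows rose, but of the 235 tested members with CARE 66 rose, 44 fell and 125 were not called. Gadd45g (log2 ratio -1.89) is among the falls and G6pc (-0.21) among those not called. CARE is short and stood in 3.97% of all promoters of the table, in 2.75% of tested members and in 3.55% of rises. Its share was 6.54% in rises of at least 4-fold (20 of 306) and 8.47% in those of at least 8-fold (10 of 118). In falls it was 2.31%, and in falls of at least 4-fold 0.913% (2 of 219). The core of the unfolded protein response element, TGACGTGG, stood in 0.676% of all promoters, 1.01% of tested members, 2.15% of rises and 0.367% of falls, and in 1.63% of rises of at least 4-fold. The cyclic AMP response element, TGACGTCA, stood in 1.79% of all promoters, 3.68% of tested members, 4.68% of rises and 2.68% of falls, and in 4.25% of rises of at least 4-fold. CCAAT alone stood in 37.4% of all promoters, 43.1% of tested members, 48.7% of rises and 45.2% of falls, and each ERSE contains it. Its share was also higher in larger rises, 56.2% of those of at least 4-fold and 64.4% of those of at least 8-fold. In rises of at least 8-fold the cyclic AMP response element stood in 5.93% (7 of 118) and the core of the unfolded protein response element in 1.69% (2 of 118). A match is a string of letters and was not tested for binding.

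**Figure D1:**
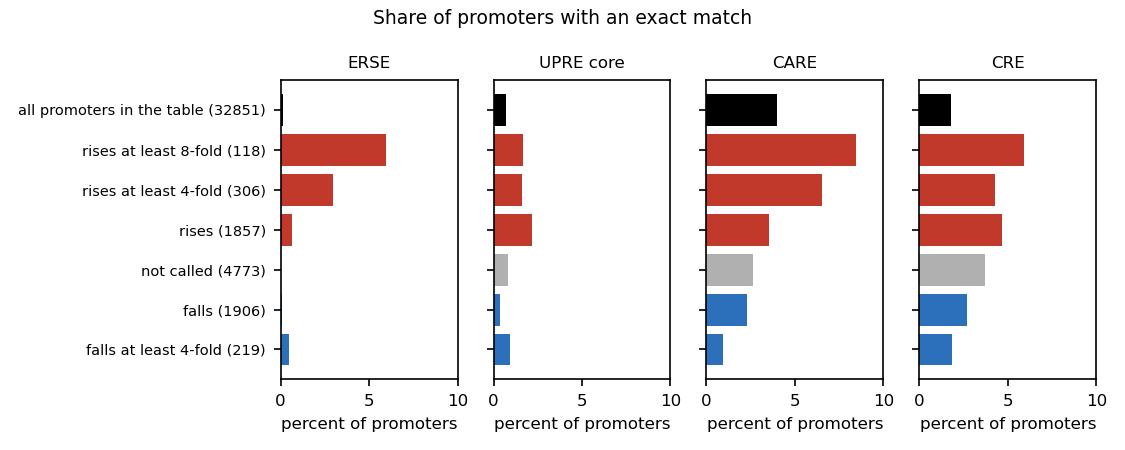
Percent with an exact match on either strand of a 300-base promoter (x axis), for 4 elements. The y axis gives classes of tested members in wild-type liver, counted by gene, and all promoters of the table, counted by promoter (number in brackets). ERSE stands in 12 of 1857 rises (0.646%) and in 7 of 118 rises of at least 8-fold (5.93%). CARE stands in 66 (3.55%) and 10 (8.47%) of the same. The classes of rises are nested, and their comparison is void as a check.

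Over the whole comparison 11329 members were tested, and 4900 of them (43.3%) were called, 2396 higher (21.1%) and 2504 lower (22.1%). The unadjusted p was under 0.05 for 5957. Changes of at least 2-fold numbered 1416 up and 1399 down, and those of at least 8-fold 152 up and 85 down. The median log2 ratio of all tested members was -0.02. These shares and this median are the base for the counts of each gene list, but the base differs by level with DMSO. By level with DMSO, the share that fell was 14.1% from 1 to 10 FPKM, 26.7% from 10 to 100, 66.3% from 100 to 1000 and 47.5% of the 80 loci at 1000 or more. The share that rose was 22.4%, 20.2%, 4.97% and 2.50% over the same levels. Of 422 tested members under 1 FPKM with DMSO 189 rose and 0 fell. These members were included through their tunicamycin value alone, so none of them could count as a fall. The median log2 ratio was -0.84 both from 100 to 1000 FPKM and at 1000 or more. Counts of lists made of abundant liver genes are to be read beside the shares of those levels too. The DMSO value is also the base of each ratio, so the shares and medians by level are a description.

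**Figure D2:**
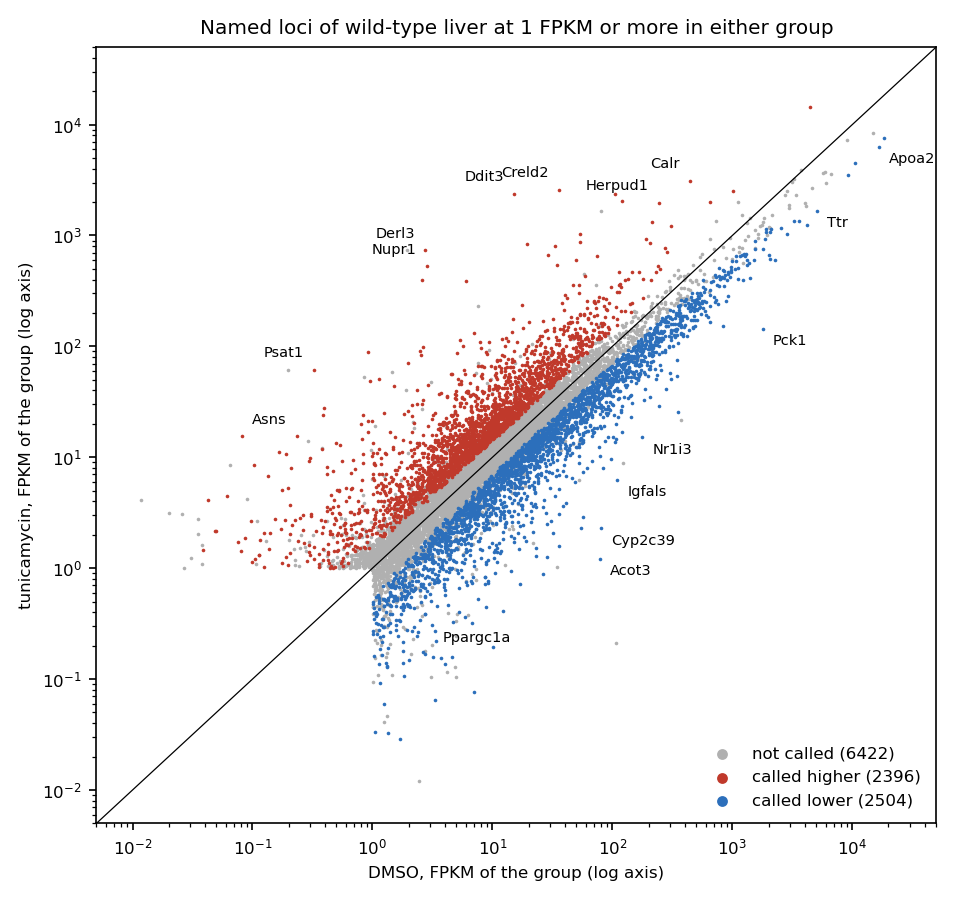
FPKM of each named locus with DMSO (x axis, log scale) and with tunicamycin (y axis, log scale); each point is 1 of 11322 tested members of wild-type liver, coloured by call, and the line marks equal values. Most of the points above 100 FPKM with DMSO that were called lie under the line, and Derl3, Ddit3 and Creld2 stand far above it.

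The largest called ratios among loci with a single name and at least 10 FPKM in the higher group included many genes of the stress response and of amino acid supply. Derl3, which helps to move misfolded proteins out of the ER, rose from 2.74 to 737 FPKM (log2 ratio 8.07). Psat1, an enzyme of serine synthesis, rose from 0.328 to 61.5 FPKM (log2 ratio 7.55) and the chromatin-associated stress regulator Nupr1 from 2.85 to 525 FPKM (log2 ratio 7.53). CHOP, encoded by Ddit3, is a transcription factor tied to cell death under lasting stress and rose from 15.2 to 2385 FPKM (log2 ratio 7.29). The other genes in that set were the predicted gene Gm6614 (log2 ratio 7.60), the stress factor Atf3 (7.26), the focal adhesion gene Tes (6.61), the ER protein gene Creld2 (6.17), the proline synthesis enzyme Aldh18a1 (6.14), the cationic amino acid transporter Slc7a1 (6.07), asparagine synthetase Asns (6.04) and the pseudokinase Trib3 (6.00). Ratios from DMSO values under 1 FPKM depend on how low values are treated. As a difference in log2(FPKM + 1), Gm6614 comes to 3.95, Psat1 to 5.56, Aldh18a1 to 4.36, Slc7a1 to 3.37 and Asns to 3.74, against 7.62 for Derl3 and 7.20 for Ddit3.

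The largest falls by the same limits included genes of lipid and drug metabolism. Acot3, a peroxisomal acyl-CoA thioesterase, fell from 78.2 to 1.22 FPKM (log2 ratio -6.01), and endothelial lipase Lipg from 10.1 to 0.193 FPKM (log2 ratio -5.71). The cytochrome P450 gene Cyp2c39 fell from 79.7 to 2.29 FPKM (log2 ratio -5.12), and the carboxylesterase gene Ces1b from 54.6 to 2.29 FPKM (log2 ratio -4.57). Igfals, the subunit that stabilises IGF-I in plasma, fell from 109 to 6.29 FPKM (log2 ratio -4.11). The rest of the set were C730036E19Rik (log2 ratio -4.91), Tmem25 (-4.88), the membrane receptor gene Paqr7 (-4.57), the deubiquitinase Usp2 (-4.50), Nrep (-4.48), the mitochondrial import gene Tomm40l (-4.31) and the transglutaminase Tgm1 (-4.16). Some of these values with tunicamycin are under 1 FPKM. As a difference in log2(FPKM + 1), Lipg comes to -3.22, C730036E19Rik to -3.24, Tmem25 to -3.85 and Paqr7 to -3.39, against -5.16 for Acot3.

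By difference in FPKM rather than ratio, the order of the called loci was another. The locus of the iron hormone hepcidin, Hamp with Hamp2, gained most, from 4444 to 14439 FPKM (log2 ratio 1.70). Calreticulin, Calr, a lectin chaperone, rose from 439.8 to 3101 FPKM (log2 ratio 2.82) and was followed by Creld2 and Ddit3. The disulfide isomerase Pdia4 rose from 104 to 2372 FPKM (log2 ratio 4.50). The further gains of the 10 were those of the secreted ER protein gene Manf (from 121 to 2037 FPKM), Herpud1 (from 247 to 1978 FPKM), the metallothionein locus Mt1 with Mt2 (from 1017 to 2526 FPKM), P4hb (from 645 to 2018 FPKM) and Pdia3 (from 212 to 1330.4 FPKM), the last 2 being disulfide isomerases. Apolipoprotein A-II had the largest called loss at a locus that codes for a plasma protein, with Apoa2 falling from 16644 to 6302 FPKM (log2 ratio -1.40). A locus that the table names Filip1l had a larger loss, from 18203 to 7591 FPKM. Apoc1, the fatty acid binding protein Fabp1 and transthyretin Ttr followed, from 10498 to 4506 FPKM, from 9159 to 3489 FPKM and from 5055 to 1671 FPKM, ahead of Apoc3, Mgst1, B2m, Adh1 and the locus of Ces1c with Ces1f. Some loci without a call had differences as large as some of these, among them Apoe, which stood at 14863 FPKM with DMSO and 8365 with tunicamycin, and Apoa1, at 5924 FPKM with DMSO and 3759 with tunicamycin.

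The machinery that tunicamycin disables was itself raised in part. Dpagt1, the direct target of the drug, which adds the first sugar phosphate to dolichol, rose from 18.5 to 46.8 FPKM (log2 ratio 1.34). Of 27 tested genes of dolichol-linked glycan synthesis 9 rose and 2 fell, with a median log2 ratio of 0.28. Alg12 rose from 5.69 to 102 FPKM (log2 ratio 4.16) and Gmppa, a subunit gene of the GDP-mannose pyrophosphorylase complex, from 14.8 to 59.4 FPKM (log2 ratio 2.01). Nus1, a subunit of the cis-prenyltransferase that makes the dolichol chain, rose from 20.6 to 50.5 FPKM (log2 ratio 1.29). The falls were Alg5 (-0.60), which charges dolichol with glucose, and Dpm3 (-0.74), a subunit of dolichol-phosphate mannose synthase, and neither was called with q under 0.01. In hexosamine and sialic acid synthesis 6 of 8 genes rose and 0 fell (median 1.28). Among them Gfpt1, which commits glucose carbon to hexosamine, rose from 7.05 to 131 FPKM (log2 ratio 4.22), and the sialic acid synthase Nans from 8.03 to 66.1 FPKM (log2 ratio 3.04).

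Both catalytic subunits of oligosaccharyltransferase, which moves the glycan to protein, were higher. Stt3a, which acts during translocation, rose from 50.2 to 166 FPKM (log2 ratio 1.72) and Stt3b, which acts later, from 28.7 to 77.0 FPKM (log2 ratio 1.42). Of 10 subunits 7 rose and 0 fell (median 0.99), and Dad1 (0.10), Rpn2 (0.47) and Tusc3 (-0.55) did not pass. In the cycle that trims and inspects glycans 11 of 16 rose and 2 fell (median 0.90). The glucosyltransferases that mark unfolded glycoproteins, Uggt1 and Uggt2, rose from 17.0 to 60.9 FPKM and from 0.984 to 21.1 FPKM, so the minor form had the larger ratio (4.42 against 1.84). The falls of that list were Golgi enzymes that act later, Man2a1 (-1.27) and Mgat1 (-0.51).

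The sensors of ER stress rose at the level of mRNA. Eif2ak3, which encodes PERK, rose from 5.60 to 35.0 FPKM (log2 ratio 2.64), Atf6 from 19.02 to 94.7 FPKM (log2 ratio 2.32) and Ern1, which encodes IRE1, from 16.5 to 61.8 FPKM (log2 ratio 1.90). Of 10 sensors and related factors 7 rose and 0 fell (median 1.11). Xbp1 stood at 163 FPKM with DMSO and 179.8 with tunicamycin (log2 ratio 0.14), and the authors' deposited table gives no splice form, so the spliced mRNA was not measured. Creb3l3, a liver factor processed like ATF6, stood at 175 FPKM with DMSO and 148 with tunicamycin (log2 ratio -0.24), while its relative Creb3l2 rose from 6.46 to 47.1 FPKM (log2 ratio 2.87). Among 7 mRNAs described as substrates of IRE1's cleavage 3 fell and 0 rose (median -0.27), with Bloc1s1, the best known of them, falling from 92.2 to 15.3 FPKM (log2 ratio -2.59).

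On the PERK arm, Atf4 is part of a locus that the assembly merged with Cacna1i. That locus rose from 46.9 to 356 FPKM (log2 ratio 2.92), and the authors' deposited table gives it a q of 0.0227. Of 16 stress factors and regulators 11 rose and 1 fell (median 1.67). Ppp1r15a, the phosphatase subunit that reverses eIF2 phosphorylation, rose from 5.74 to 60.8 FPKM (log2 ratio 3.40), whereas its constitutive counterpart Ppp1r15b stood at 42.5 FPKM with DMSO and 30.2 with tunicamycin (log2 ratio -0.49). Chac1, which degrades glutathione, rose from 1.96 to 70.5 FPKM (log2 ratio 5.17) and Atf5 from 135 to 405 FPKM (log2 ratio 1.59). The C/EBP family split: Cebpg rose from 22.9 to 55.2 FPKM (log2 ratio 1.27), Cebpb stood at 72.6 FPKM with DMSO and 52.8 with tunicamycin (log2 ratio -0.46) and counted as a fall when q was taken within this comparison alone, and Cebpa, which maintains the hepatocyte state, fell from 206 to 35.1 FPKM (log2 ratio -2.56).

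Inside the ER, most chaperone, oxidoreductase and degradation genes rose. Of 19 lumenal chaperones and co-chaperones 14 rose and 0 fell (median 1.99). Sdf2l1 rose from 29.0 to 662 FPKM (log2 ratio 4.51), the large chaperone Hyou1 from 53.7 to 868 FPKM (log2 ratio 4.01) and the co-chaperone Dnajb9, which represses IRE1, from 49.9 to 605 FPKM (log2 ratio 3.60). The central chaperones BiP and GRP94 could not be read: Hspa5 is at 409 FPKM and Hsp90b1 at 398 with DMSO, and both are listed at 0 with tunicamycin with the status for loci over Cuffdiff's depth limit. Dnajb11, a partner of BiP, stood at 57.5 FPKM with DMSO and 445 with tunicamycin (log2 ratio 2.95), with a q of 0.245 in the authors' deposited table. Of 18 disulfide oxidoreductases 11 rose and 1 fell (median 1.02). Both oxidases that recharge them rose, Ero1l from 5.18 to 51.2 FPKM (log2 ratio 3.31) and Ero1lb from 14.5 to 135 FPKM (log2 ratio 3.21). Qsox1, an oxidase that works further along the secretory route, fell from 202 to 128 FPKM (log2 ratio -0.66).

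ER-associated degradation, which returns misfolded protein to the cytosol, had 21 of 28 genes higher and 3 lower (median 1.12). Its ubiquitin ligase complex rose strongly, with Syvn1 going from 33.3 to 796 FPKM (log2 ratio 4.58) and its partner Sel1l from 34.6 to 542 FPKM (log2 ratio 3.97). The falls included the membrane ligase gene Rnf5 (-0.56) and Aup1 (-0.52). The 3 derlins, which form the exit channel, all rose, but their levels differed: Derl1 ended at 167 FPKM, Derl2 at 50.8 and Derl3, the lowest with DMSO, at 737. The extraction ATPase Vcp rose from 33.9 to 73.2 FPKM (log2 ratio 1.11).

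Entry into the secretory route and traffic out of the ER rose as well. Of 25 genes of the translocon, signal recognition and signal peptidase 20 rose and 1 fell (median 1.14), the fall being Tram2 (-1.97). The channel subunit Sec61a1 rose from 70.7 to 249.9 FPKM (log2 ratio 1.82) and the associated Ssr3 from 114 to 467 FPKM (log2 ratio 2.03). Of 32 genes of COPII and COPI vesicles 22 rose and 3 fell (median 1.04). The cargo adaptor Sec24d rose from 32.4 to 147 FPKM (log2 ratio 2.18) and the COPII coat gene Sec23b from 25.1 to 103 FPKM (log2 ratio 2.03). Sar1a rose from 47.5 to 80.1 FPKM while Sar1b, the form that large lipoprotein particles need, fell from 211 to 97.5 FPKM, so the GTPase pair that starts COPII buds went from a higher Sar1b to nearly equal values.

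**Figure D3:**
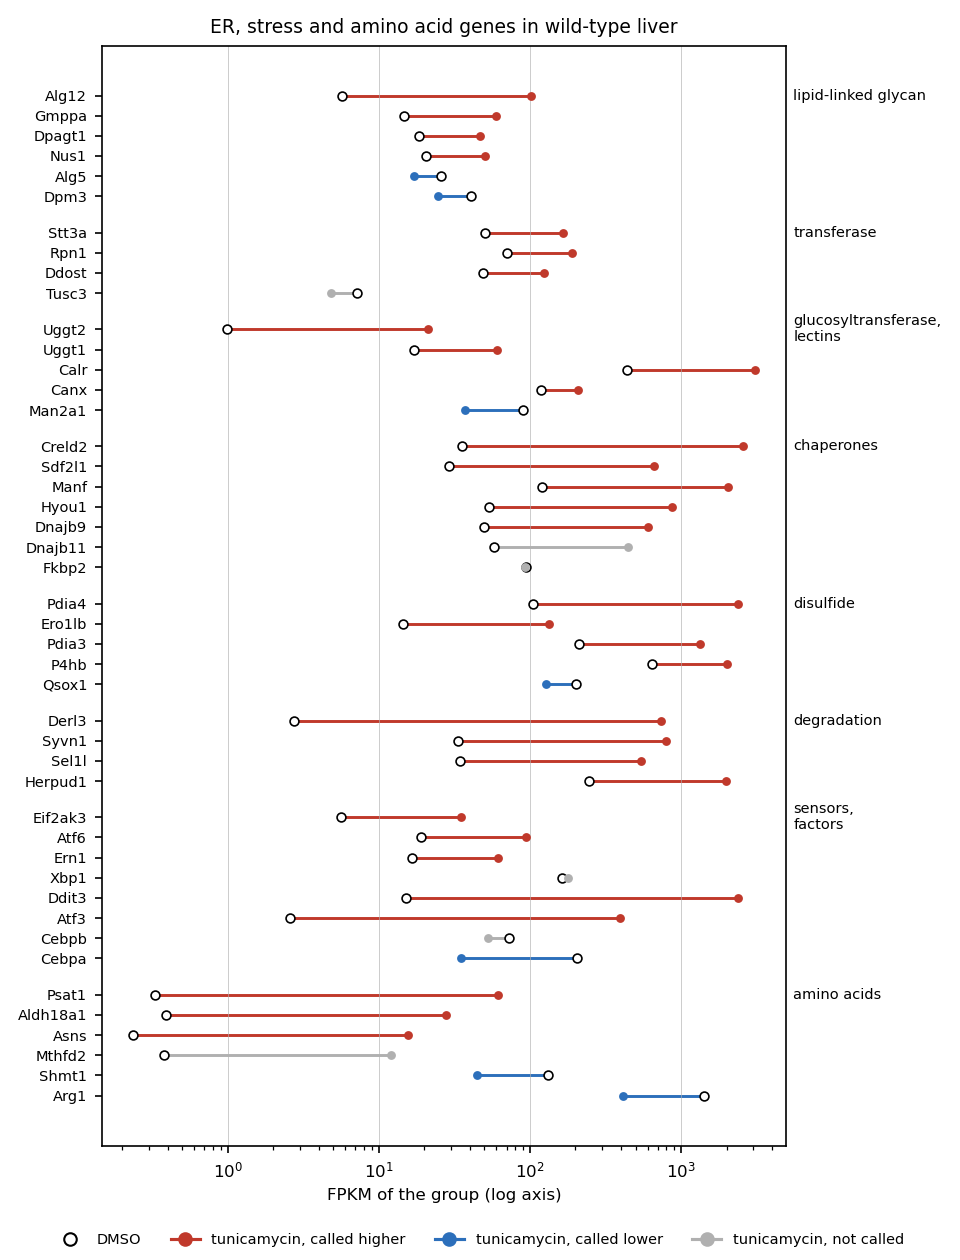
FPKM (x axis, log scale) with DMSO (open circles) and with tunicamycin (filled circles, coloured by call) of ER, stress and amino acid genes in wild-type liver, 1 value per group. Derl3, Psat1, Ddit3 and Atf3 have the longest lines, Dnajb11 and Mthfd2 have long lines without a call, and Cebpa, Man2a1, Shmt1 and Arg1 go to the left.

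Some genes of amino acid synthesis rose from low values, and many of amino acid disposal fell, as did many abundant loci. Some synthesis genes had under 1 FPKM with DMSO: Asns rose from 0.236 to 15.5 FPKM (log2 ratio 6.04), Aldh18a1 from 0.392 to 27.7 FPKM (log2 ratio 6.14) and the proline reductase Pycr1 from 0.0496 to 2.18 FPKM (log2 ratio 5.46). Of 16 genes of asparagine, serine, proline and folate metabolism 9 rose and 4 fell (median 1.58). Those under 1 FPKM with DMSO were included through their tunicamycin value alone and could not count as falls. The count and median of this list therefore do not measure a direction. Among its folate enzymes, mitochondrial Aldh1l2 rose from 0.0616 to 4.45 FPKM (log2 ratio 6.18) and cytosolic Shmt1, Mthfd1 and Aldh1l1 fell (-1.57, -1.36 and -1.04). Mitochondrial Shmt2 fell too (-0.59). Mitochondrial Mthfd2 stood at 0.381 FPKM with DMSO and 12.1 with tunicamycin (log2 ratio 4.99) and was not called, with a q of 0.116 in the authors' deposited table.

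Amino acid transporters of the plasma membrane had 6 higher and 6 lower of 19 (median 0.23). Slc7a1 rose from 0.165 to 11.1 FPKM (log2 ratio 6.07), and the subunits of the large neutral amino acid exchanger, Slc7a5 and Slc3a2, rose by 1.74 and 1.39 on the log2 scale. The liver's own cationic carrier Slc7a2 fell from 174 to 61.8 FPKM (log2 ratio -1.49), a change opposite to that of Slc7a1, and the alanine carrier Slc38a4 from 578 to 254 FPKM (log2 ratio -1.19). Of 20 cytosolic tRNA synthetases 18 rose and 0 fell (median 1.29), from Wars (2.71) to Farsa (0.60), while Mars (0.41) and Dars (0.33) did not pass. Mitochondrial synthetases had 4 of 17 higher and 1 lower (median 0.05), the share of rises being close to that of all tested loci.

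Disposal of amino acids is a main task of the liver, and no gene of these lists was called higher. Of 12 genes of the urea cycle and ammonia handling 9 fell (median -0.90), with arginase Arg1 going from 1409 to 413 FPKM (log2 ratio -1.77) and ornithine transcarbamylase Otc from 386 to 129.9 FPKM (log2 ratio -1.57). Cps1, the first enzyme of the cycle, stood at 1814 FPKM with DMSO and 1312 with tunicamycin (log2 ratio -0.47). Of 35 catabolic loci 23 fell (median -0.88). That share is close to the 66.3% of all tested loci from 100 to 1000 FPKM with DMSO that fell (median -0.84). The glycine cleavage enzyme Gldc fell from 41.0 to 6.83 FPKM (log2 ratio -2.59) and histidase Hal from 186 to 40.9 FPKM (log2 ratio -2.19). Tat, tyrosine aminotransferase, stood at 1106 FPKM with DMSO and 2018 with tunicamycin (log2 ratio 0.87), the highest ratio of the list, and counted as a rise when q was taken within this comparison alone.

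Many genes that build ribosomes rose, and few of those for the ribosome itself were called. Of 35 genes of ribosome biogenesis and RNA polymerase I 24 rose and 0 fell (median 1.03). Nop58, a core protein of the particles that methylate ribosomal RNA, rose from 13.5 to 113 FPKM (log2 ratio 3.07), its partner Nop56 from 8.17 to 32.6 FPKM (log2 ratio 1.99) and nucleolin, Ncl, from 72.6 to 219 FPKM (log2 ratio 1.60). Myc, a transcription factor that drives this programme in growing cells, rose from 4.61 to 15.6 FPKM (log2 ratio 1.76). Of 76 ribosomal proteins 3 rose and 1 fell (median 0.01), and many of these loci have low FPKM for so abundant a family, so their levels are not described. Of 35 initiation factor genes 17 rose and 0 fell (median 0.48), with Eif1a (2.26) and Eif3a (1.87) the highest. In the list of long noncoding RNAs and hosts of small nucleolar RNAs 7 rose and 2 fell of 19 (median 1.04). Some hosts, spliced transcripts whose introns carry guides for ribosomal RNA modification, rose: Snhg5 from 6.28 to 38.0 FPKM (log2 ratio 2.59), Snhg6 from 33.8 to 106 FPKM (log2 ratio 1.65) and Gas5 from 21.4 to 47.2 FPKM (log2 ratio 1.14).

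In the cytosol more chaperone genes fell than rose. Of 21 cytosolic heat shock genes 2 rose and 13 fell (median -0.69). The constitutive HSP70 Hspa8 fell from 143 to 75.8 FPKM (log2 ratio -0.91), HSP90 Hsp90ab1 from 476 to 252 FPKM (log2 ratio -0.92) and the HSP90 co-chaperone Fkbp4 from 119.6 to 29.2 FPKM (log2 ratio -2.03). Bag3, which couples chaperones to autophagy, rose from 12.6 to 64.0 FPKM (log2 ratio 2.34). In mitochondria 5 of 13 chaperones and proteases rose and 2 fell (median 0.29): the HSP70 Hspa9 rose from 249.7 to 493 FPKM (log2 ratio 0.98) and the protease Lonp1 from 63.5 to 112 FPKM (log2 ratio 0.81), and the co-chaperonin Hspe1 fell from 131 to 83.8 FPKM (log2 ratio -0.64).

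The proteasome had 2 of 38 genes higher and 11 lower (median -0.23), or 1 and 6 with q under 0.01. The falls included the 3 subunits of the immunoproteasome, Psmb8 (-1.09), Psmb9 (-1.28) and Psmb10 (-1.34), and the subunits of its activator, Psme1 (-0.93) and Psme2 (-0.95). Psme3, an activator found in the nucleus, rose from 31.1 to 60.2 FPKM (log2 ratio 0.95). Autophagy genes had 6 higher and 7 lower of 32 (median -0.13), close to the shares of all tested loci. The cargo receptor Sqstm1 rose from 204 to 856 FPKM (log2 ratio 2.07), whereas Tfeb, a factor for lysosomal genes, fell from 4.84 to 1.79 FPKM (log2 ratio -1.44) and the lysosomal membrane protein gene Lamp2 from 367 to 165 FPKM (log2 ratio -1.15). Antioxidant genes were also split, with the sulfiredoxin gene Srxn1 rising from 21.3 to 90.2 FPKM (log2 ratio 2.09) and the glutathione synthesis gene Gclc falling from 69.3 to 40.2 FPKM (log2 ratio -0.78), and with 4 higher and 5 lower of 16 (median -0.25).

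Most tested genes of mitochondrial respiration and fat burning fell. Of 70 nuclear genes for oxidative phosphorylation 59 fell and 0 rose (median -0.81). The falls were moderate, from Cox6a1 (-0.50) to Atp5k, which went from 925 to 286 FPKM (log2 ratio -1.70), and the summed FPKM of the list went from 18882 to 10459. Ppargc1a, a coactivator of mitochondrial genes, fell from 3.15 to 0.307 FPKM (log2 ratio -3.36), and Esrra, a receptor it works with, from 20.9 to 9.58 FPKM (log2 ratio -1.13). Of 31 genes of fatty acid oxidation and ketogenesis 28 fell and 1 rose (median -0.89). Ppara, the receptor that controls them, fell from 70.2 to 16.7 FPKM (log2 ratio -2.07), and Cpt2, which loads fatty acids into mitochondria, from 94.6 to 31.7 FPKM (log2 ratio -1.58). The rise was Pdk4, a kinase that spares pyruvate and is usually counted as a PPARA target, from 1.47 to 12.3 FPKM (log2 ratio 3.06).

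Fat and sterol synthesis had members in both directions. Of 22 genes of fatty acid synthesis and modification 4 rose and 10 fell (median -0.51). Srebf1, which drives that programme, fell from 77.4 to 12.3 FPKM (log2 ratio -2.66), and Acacb, whose product holds back fatty acid oxidation, from 27.0 to 4.08 FPKM (log2 ratio -2.73), while Acaca, the form for synthesis, rose from 7.36 to 10.9 FPKM (log2 ratio 0.56). Fasn stood at 60.7 FPKM with DMSO and 41.4 with tunicamycin (log2 ratio -0.55). In the cholesterol list 6 rose and 14 fell of 29 (median -0.66). The synthesis enzymes Mvd and Fdps, of the isoprenoid steps, rose from 14.6 to 77.5 FPKM (log2 ratio 2.41) and from 36.1 to 103 FPKM (log2 ratio 1.51). The regulators Insig2 and Insig1 went apart, from 57.6 to 143 FPKM and from 158 to 46.4 FPKM. Npc1, which releases cholesterol from lysosomes, rose from 38.0 to 248 FPKM (log2 ratio 2.70), and the endocytic receptor gene Lrp1 fell from 120.2 to 16.8 FPKM (log2 ratio -2.84).

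Most lipoprotein genes fell. Of 22 genes for apolipoproteins, particle assembly and sterol efflux 15 fell and 0 rose (median -1.15). For comparison, 66.3% of all tested loci from 100 to 1000 FPKM with DMSO fell, and 47.5% at 1000 or more. Apoa5, which promotes clearance of triglyceride, fell from 841 to 153 FPKM (log2 ratio -2.46), Apoc3, which slows it, from 4193 to 1243 FPKM (log2 ratio -1.75), and the assembly protein gene Mttp from 119.9 to 67.5 FPKM (log2 ratio -0.83). Apob stood at 1219 FPKM with DMSO and 562 with tunicamycin (log2 ratio -1.12) and Apoe at 14863 FPKM with DMSO and 8365 with tunicamycin (log2 ratio -0.83), both without a call. Among 17 lipid droplet and uptake loci most fell, 11 against 4 that rose (median -0.80). At least 2-fold were 4 of the falls and 3 of the rises. The lowest ratio of the list, -6.01, equals that of the thioesterase gene Acot3. The rises were the droplet coat gene Plin2 (from 229.8 to 470.1 FPKM), Cidec (from 2.05 to 8.31 FPKM), the lipoprotein receptor Vldlr (from 1.79 to 4.50 FPKM) and the lipase Lpl (from 7.43 to 11.9 FPKM).

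Bile acid synthesis had 2 higher and 8 lower of 16 (median -0.61). Cyp7a1, its rate-limiting enzyme, fell from 105 to 13.8 FPKM (log2 ratio -2.93), and Cyp8b1, which sets the share of cholic acid, rose from 60.2 to 105 FPKM (log2 ratio 0.81). Nr0b2, a repressor of both genes, fell from 27.7 to 6.60 FPKM (log2 ratio -2.07). Of 20 bile acid and organic ion transporters 3 rose and 11 fell (median -0.87). The uptake carrier Slc10a1 fell from 484 to 151 FPKM (log2 ratio -1.68) while the canalicular export pump Abcb11 stood at 173 FPKM with DMSO and 172 with tunicamycin (log2 ratio -0.01). On the blood side Abcc4, an export pump that is low in healthy liver, rose from 1.29 to 10.6 FPKM (log2 ratio 3.04) and its relative Abcc3 fell from 93.9 to 42.8 FPKM (log2 ratio -1.13).

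In glucose metabolism 4 rose and 10 fell of 25 (median -0.26). Pck1, which starts gluconeogenesis in the cytosol, fell from 1782 to 144 FPKM (log2 ratio -3.63), and its mitochondrial form Pck2 rose from 1.39 to 3.69 FPKM (log2 ratio 1.41). G6pc, which releases glucose, stood at 154 FPKM with DMSO and 134 with tunicamycin (log2 ratio -0.21) and Slc2a2, the glucose carrier of hepatocytes, at 149 FPKM with DMSO and 140.3 with tunicamycin (log2 ratio -0.08). Glycogen synthase Gys2 fell from 142 to 36.5 FPKM (log2 ratio -1.96). In drug metabolism, of 40 cytochrome P450 loci 2 rose and 22 fell (median -0.84), and of 36 conjugating enzymes 0 rose and 25 fell (median -1.20). Among all tested loci from 100 to 1000 FPKM with DMSO the share that fell was 66.3% (median -0.84). Cyp2b10, the textbook target of the receptor CAR, rose from 39.6 to 214 FPKM (log2 ratio 2.43) while Nr1i3, which encodes CAR, fell from 177 to 15.2 FPKM (log2 ratio -3.54). These families hold many near-identical copies, whose reads the authors' assembly could have split between genes.

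Transcription factors that define hepatocytes gave divided counts. Hnf4a stood at 209.7 FPKM with DMSO and 186 with tunicamycin (log2 ratio -0.17) and Foxa1 at 7.10 FPKM with DMSO and 6.49 with tunicamycin (log2 ratio -0.13). Foxa2 fell from 17.4 to 3.72 FPKM (log2 ratio -2.22), Onecut1 from 18.97 to 1.75 FPKM (log2 ratio -3.44) and Foxa3 rose from 28.9 to 44.7 FPKM (log2 ratio 0.63). The list had 4 higher and 4 lower of 17 (median -0.14), close to the shares of all tested loci. Nuclear receptors had 5 higher and 14 lower of 30 (median -0.65). The partner of many of them, Rxra, fell from 134 to 57.1 FPKM (log2 ratio -1.23), while the bile acid receptor Nr1h4 stood at 81.5 FPKM with DMSO and 60.1 with tunicamycin (log2 ratio -0.44) and the glucocorticoid receptor Nr3c1 at 21.6 FPKM with DMSO and 21.9 with tunicamycin (log2 ratio 0.02).

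Clock genes were displaced in both directions between groups taken at the same hour after injection. Arntl, which encodes the activator BMAL1, rose from 0.828 to 10.8 FPKM (log2 ratio 3.70) and Nfil3, a repressor of the output genes, from 10.4 to 65.3 FPKM (log2 ratio 2.65). The outputs of the clock fell: Dbp from 79.2 to 10.3 FPKM (log2 ratio -2.94), Hlf from 16.3 to 2.08 FPKM (log2 ratio -2.97) and Tef from 77.6 to 28.2 FPKM (log2 ratio -1.46). Per1 rose from 15.5 to 52.5 FPKM (log2 ratio 1.76), Per2 fell from 12.5 to 7.15 FPKM (log2 ratio -0.80) and Per3 from 15.2 to 1.71 FPKM (log2 ratio -3.15). Of the receptors that act on Arntl, Rora rose from 10.7 to 53.2 FPKM (log2 ratio 2.31) and Nr1d1 stood at 23.3 FPKM with DMSO and 24.6 with tunicamycin (log2 ratio 0.07). The list had 5 higher and 8 lower of 17 (median -0.05). The sources used here do not name the hour of day.

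**Figure D4:**
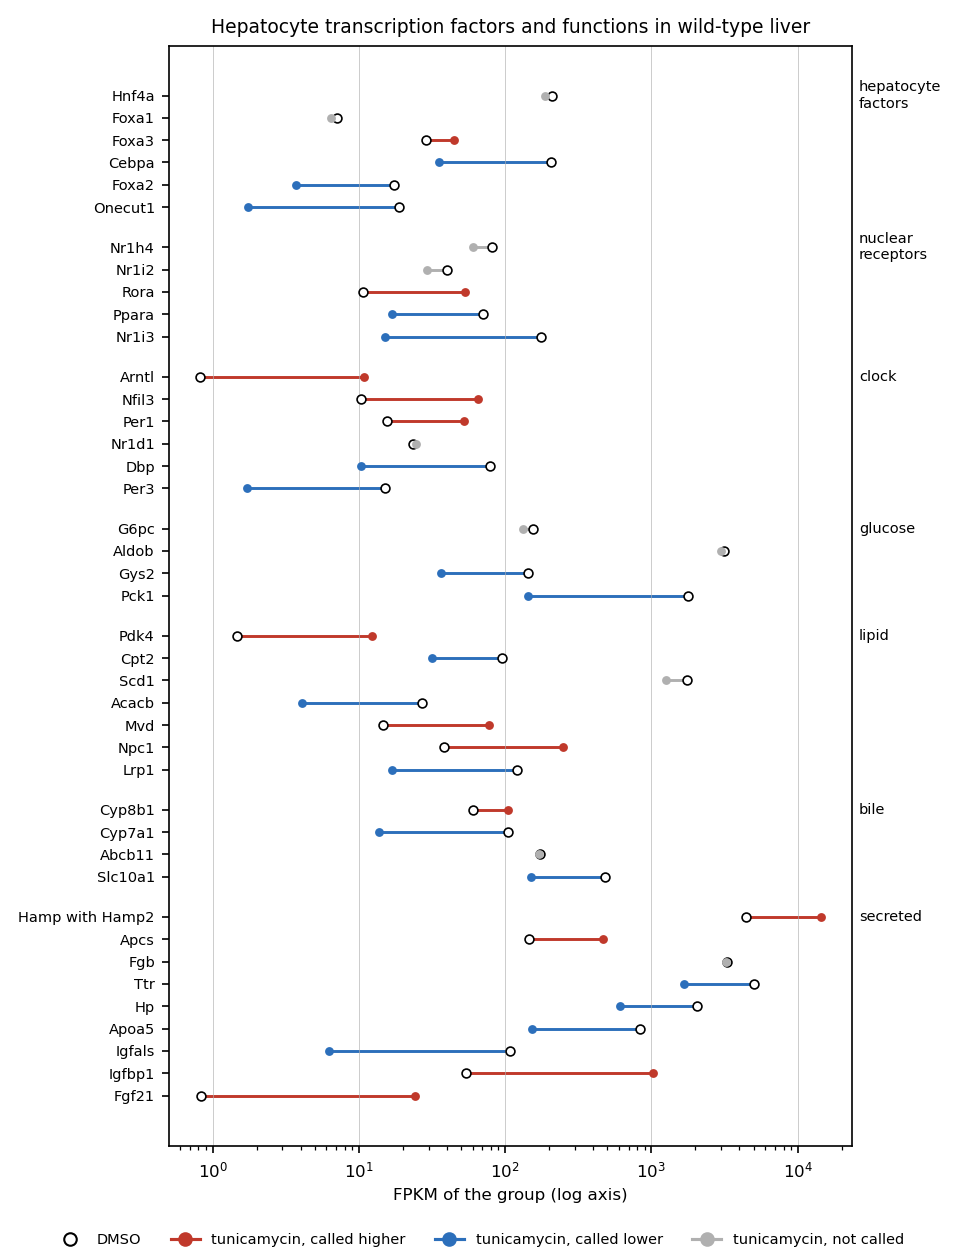
FPKM (x axis, log scale) with DMSO (open circles) and with tunicamycin (filled circles, coloured by call) of hepatocyte transcription factors, receptors, clock, metabolic and secreted genes in wild-type liver, 1 value per group. Hnf4a, Abcb11 and Fgb hardly move, Pck1, Nr1i3 and Igfals have long lines to the left, and Arntl, Igfbp1 and Fgf21 to the right.

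Among secreted signals, the stress hormone Fgf21 rose from 0.840 to 24.0 FPKM (log2 ratio 4.84), Gdf15, which lowers appetite, from 11.8 to 64.4 FPKM (log2 ratio 2.44) and Igfbp1, which binds IGF-I, from 53.9 to 1028 FPKM (log2 ratio 4.25). The list of stress hepatokines, to which Fgf21 and Gdf15 belong, had 5 higher and 5 lower of 16 (median -0.34), and 3 lower with q under 0.01. In the growth hormone and IGF list Igfbp1 was the 1 rise, and 11 of 19 fell (median -0.74), or 7 with q under 0.01. Igf1 itself fell from 528 to 221 FPKM (log2 ratio -1.25) and the growth hormone receptor Ghr from 244 to 117 FPKM (log2 ratio -1.05). Feedback genes that signalling through STAT5 induces fell as well, Socs2 from 17.0 to 2.38 FPKM (log2 ratio -2.84) and Cish from 8.76 to 1.13 FPKM (log2 ratio -2.96). Angptl4, an inhibitor of lipoprotein lipase, rose from 67.4 to 104 FPKM (log2 ratio 0.63).

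Lists of plasma proteins made by hepatocytes had more falls than rises, as did abundant loci in general. Among all tested loci from 100 to 1000 FPKM with DMSO 66.3% fell, with a median of -0.84. At 1000 FPKM or more 47.5% fell. A comparison with loci of matched level was not made. Complement had 1 higher and 13 lower of 25 (median -0.84), and Hc, which encodes C5, fell from 253 to 60.8 FPKM (log2 ratio -2.06). Coagulation had 1 higher and 13 lower of 24 (median -0.72), and F7 fell from 90.1 to 27.4 FPKM (log2 ratio -1.72). The fibrinogen chains Fga, Fgb and Fgg, which rise in an acute phase response, had ratios of -0.33, -0.03 and -0.20. Acute phase proteins had 3 higher and 10 lower of 23 (median -0.68): serum amyloid P, Apcs, rose from 145 to 469.8 FPKM (log2 ratio 1.69), while haptoglobin, Hp, fell from 2047 to 609.8 FPKM (log2 ratio -1.75) and Saa1 from 133 to 61.1 FPKM (log2 ratio -1.12). The thyroxine carrier Serpina7 was the rise among 21 serpins, from 12.5 to 81.8 FPKM (log2 ratio 2.71), and 11 fell (median -0.91). Albumin is listed at 0 in both groups, and transferrin and the locus of Serpina1b with Serpina1d in 1 group, with the status for the depth limit, so they give no values here.

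Iron genes had 5 higher and 5 lower of 14 (median -0.39). Hfe, which senses iron load upstream of hepcidin, rose from 52.8 to 357 FPKM (log2 ratio 2.76). Id1 and Smad7, targets of the BMP signal that also drives hepcidin, rose by 0.72 and 0.59 on the log2 scale, and Tmprss6, which damps that signal, fell from 181 to 75.9 FPKM (log2 ratio -1.25). The transferrin receptor Tfrc fell from 23.2 to 3.57 FPKM (log2 ratio -2.70).

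Death, immune and growth genes gave mixed counts. Of 16 BCL2 family genes 8 fell and 0 rose (median -0.57), and these include genes that promote death, Bbc3 (-1.61), Bmf (-2.15) and Bax (-0.75). Targets of p53 had 5 higher and 11 lower of 21 (median -0.58): the cell cycle inhibitor Cdkn1a rose from 13.3 to 38.8 FPKM (log2 ratio 1.54) and Phlda3 fell from 9.21 to 0.736 FPKM (log2 ratio -3.64). Chemokines and targets of NF-kappaB and interferon had 4 higher and 16 lower of 27 (median -1.15), with Ifit1 falling from 10.8 to 1.14 FPKM (log2 ratio -3.25), Irf1 from 23.9 to 7.11 FPKM (log2 ratio -1.75) and Ccl9 rising from 35.9 to 105 FPKM (log2 ratio 1.55). Immediate early genes had 10 higher and 3 lower of 20 (median 0.54), and Jun rose from 4.61 to 18.2 FPKM (log2 ratio 1.98). In the cell cycle list (6 higher and 9 lower of 28, median -0.42) the growth arrest gene Gadd45a rose from 5.35 to 114 FPKM (log2 ratio 4.41) and Gadd45g fell from 28.0 to 7.55 FPKM (log2 ratio -1.89). Of 16 brakes on the growth kinase mTORC1 4 rose and 6 fell (median -0.10), with Ddit4 and Sesn2 higher (from 8.12 to 52.0 FPKM and from 4.89 to 16.4 FPKM) and Sesn1 and Sesn3 lower (from 8.72 to 5.82 FPKM and from 7.75 to 4.61 FPKM).

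Cytoskeletal genes had more rises than falls. Of 27 actin, tubulin and keratin genes 13 rose and 4 fell (median 0.56). The keratin pair of hepatocytes rose, Krt18 from 113 to 307 FPKM (log2 ratio 1.44) and Krt8 from 74.3 to 116 FPKM (log2 ratio 0.64). The tubulin Tubb6 rose from 10.7 to 57.0 FPKM (log2 ratio 2.41), whereas Tuba4a fell from 91.0 to 36.5 FPKM (log2 ratio -1.32).

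Hepatocyte genes with higher expression near the central vein and near the portal vein both had more falls than rises. Of 19 pericentral genes 13 fell and 2 rose (median -1.09), and of 17 periportal genes 12 fell and 0 rose (median -0.99). For comparison, 66.3% of all tested loci from 100 to 1000 FPKM with DMSO fell (median -0.84). The Wnt targets Lgr5 and Rnf43, which mark the central zone, fell from 2.22 to 0.637 FPKM and from 10.7 to 3.04 FPKM, and Axin2, another, stood at 2.74 FPKM with DMSO and 2.49 with tunicamycin (log2 ratio -0.14). A difference between both zones was not tested.

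The label liver matched the markers: Apoa1 stood at 5924 FPKM with DMSO and 3759 with tunicamycin (log2 ratio -0.66) and Ttr at 5055 and 1671, and of 11 hepatocyte markers 4 fell and 0 rose, with a median of -0.66 and a summed FPKM of 25787 and 17135. Markers of macrophages and stellate cells had few calls. Of 13 macrophage markers 1 rose and 0 fell (median -0.02), and their summed FPKM was 415 with DMSO and 370.5 with tunicamycin. Of 13 markers of sinusoidal endothelium 4 rose and 0 fell (median 0.52), with sums of 192 and 246, a share of rises above that of all tested loci. Of 12 stellate cell markers 1 rose and 0 fell (median 0.13), with sums of 253 and 256. The cholangiocyte, neutrophil and erythroid lists had 5, 2 and 3 tested markers, with 1, 0 and 1 falls and 0 rises. 0 of the 10 lymphocyte markers matched to a locus reached 1 FPKM. Skeletal muscle, adrenal, fat and pancreas lists had 3, 3, 1 and 1 tested markers, of which Acta1 (from 0.104 to 1.21 FPKM), Akr1b7 (from 3.95 to 20.8 FPKM) and Cidec rose and Cela1 fell (from 31.3 to 13.1 FPKM). The part that shifts in cell makeup have in the counts of the gene lists was not tested.

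**Figure D5:**
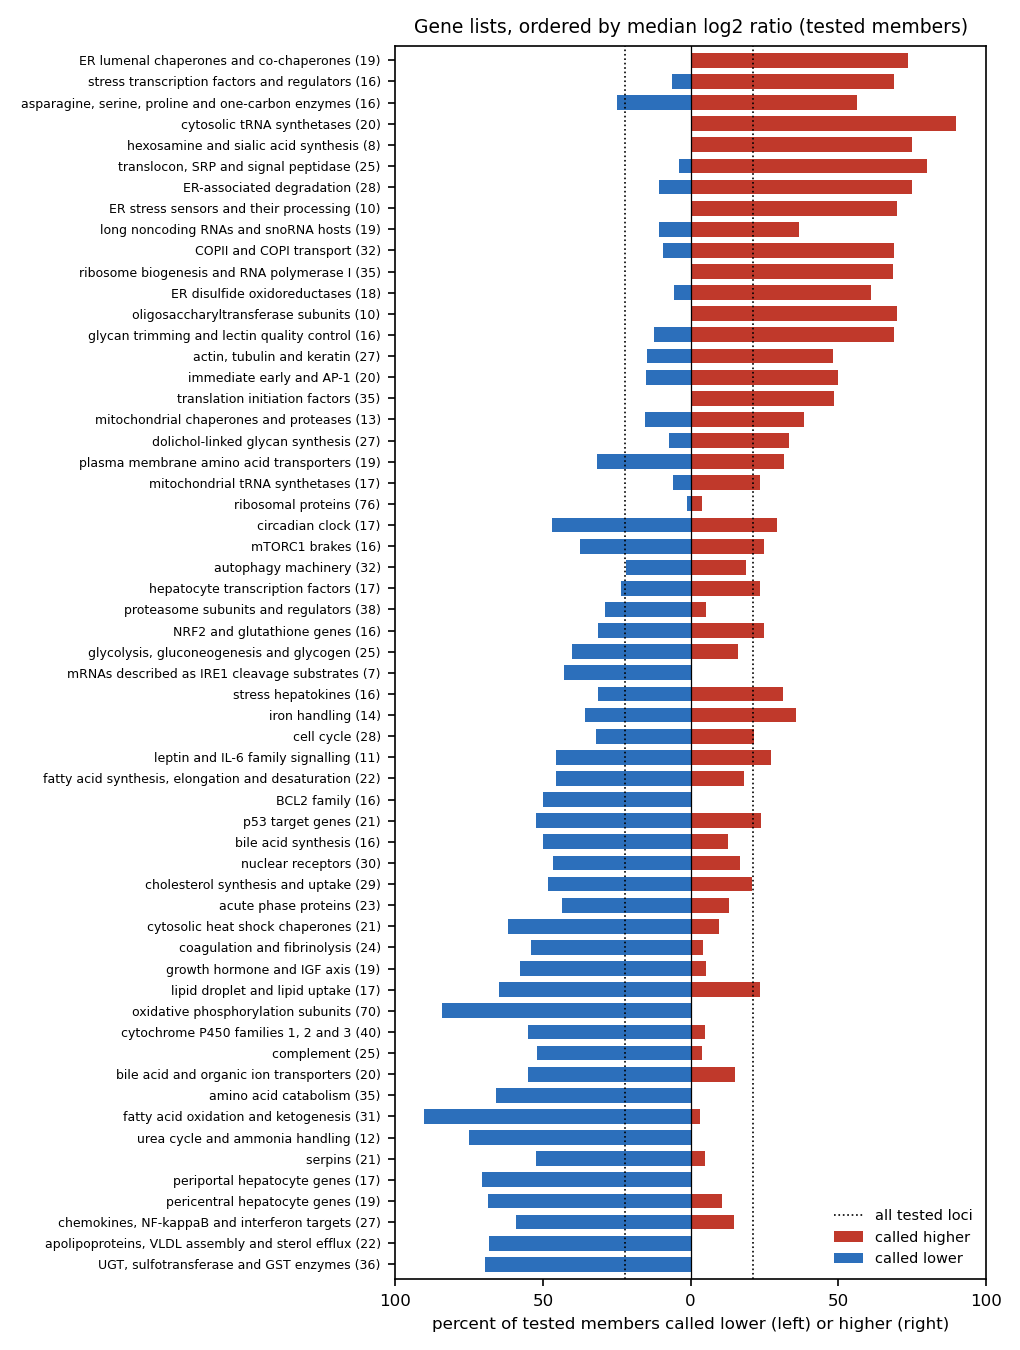
Percent of tested members called higher (right, red) and lower (left, blue) with tunicamycin in wild-type liver (x axis) for gene lists with at least 7 tested members (y axis, number tested in brackets), ordered by median log2 ratio; dotted lines mark the 21.1% and 22.1% of all tested loci. ER chaperones and stress regulators stand at the top, and fatty acid oxidation and oxidative phosphorylation have the longest blue bars. The dotted lines do not take the level with DMSO into account. Members under 1 FPKM with DMSO, as in the list of asparagine, serine, proline and one-carbon enzymes, could not count as falls.

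Some large ratios carry no call, and these loci share a property of the table. Of tested members with at least a 4-fold ratio 125 were not called, and 112 of them (89.6%) have the same interval as another locus of the table, against 29.2% of the 710 called ones and 31.8% of all tested loci. The transcript counted in such an interval depends on how the assembly divided its reads, and that part in the ratios was not tested. Slc22a30, an organic anion carrier, at 12.7 FPKM with DMSO and 1.08 with tunicamycin (log2 ratio -3.56), and Cyp3a41a at 9.34 FPKM with DMSO and 92.4 with tunicamycin (log2 ratio 3.31) are members of gene families in this group.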

How the data were processed

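Per the labels' protocols, total RNA came from frozen livers by Trizol, received ERCC spike-in RNA and went into poly(A) selection and TruSeq libraries. Per the submitters' processing notes, bcl2fastq, TopHat2 2.0.4, Cufflinks and Cuffdiff were used with the build mm9. The sources used here do not give the annotation, the normalization or any use of the spike-in. The authors deposited 1 FPKM per locus and group, and for each of 6 comparisons a log2 fold change, a test score, a p-value and a q-value. Pooling all 6 comparisons (90828 tests), Benjamini-Hochberg adjustment of the p-values returned the deposited q-values within 5.29e-07, and the deposited log2 values equal the FPKM ratios within 1.26e-05.

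Because the file holds group values only, the authors' own test was used in place of a test over libraries. Loci named for several genes (327 of the members) are given as merged, and a symbol at several loci was read at the one with its name alone and the highest mean FPKM. The 72 lists hold 1589 entries, of which 1578 matched a locus. The members and lists were chosen with earlier results of these data known. Genes named are the 12 largest called rises and falls with a single name at 10 FPKM or more, the 10 largest called gains and losses of FPKM, and in each list its defining members, largest changes and exceptions. Of the members 19 were too shallow to test and 4 over the depth limit. Some other genes named, such as holders of ERSE, were chosen after their values were seen. Some list members are counted but not reported here by name. Adjustment was tested on simulated p-values, and the matching of symbols to loci on a small made-up set, while the counts of the lists were not tested. Python 3.11.15 was used with pandas 2.3.3, numpy 2.4.6 and, for the figures, matplotlib 3.10.9.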

Additional observations from a re-analysis of the deposited data

Results flagged for a closer look

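Loci without a gene name lie outside the gene lists, and 188 of them were called higher with tunicamycin than with DMSO. Of 1544 unnamed loci tested at 1 FPKM or more 396 were called (25.6%), 188 higher and 208 lower. The largest rise among those shown here, at chr7:67300439-67301660 (mm9), went from 28.7 to 194 FPKM, and another at chr6:4309022-4309167 from 30.5 to 139. At chr6:121683130-121684612 an unnamed locus called lower has 1720.4 FPKM with DMSO and is listed at 0 with tunicamycin. What these transcripts are was not tested.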

How the results depend on the processing

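The 2396 rises and 2504 falls became 1416 and 1399 when only changes of at least 2-fold were counted. Under every other alternative both counts stayed within 1.5 times: 2583 and 2677 with q adjusted within this comparison alone, 1959 and 1934 with q under 0.01, 2454 and 2588 with no minimum FPKM, 2071 and 2052 with a minimum of 5 FPKM, and 2218 and 2294 without merged or repeated symbols. Without loci that share their interval, an alternative chosen after seeing the data, they were 1784 and 1935. Setting the median ratio to 1 or scaling by the upper quartile (a log2 shift of 0.09) turned no call's direction; neither repeats the test. Of 253 loci named with a ratio, 16 lost their call at q under 0.01, namely Acaca, Alg5, Atf4 with Cacna1i, Aup1, Cox6a1, Dpm3, Farsa, Id1, Igf1, Mgat1, Nop56, Qsox1, Rnf5, Sesn1, Shmt2 and Smad7, and 5 gained one with q within this comparison: Cebpb, Fasn, Ppp1r15b, Rpn2 and Tat. Of 144 list counts 18 moved by over 1.5 times at q under 0.01, 8 at the minimum of 5 FPKM and 6 with q within this comparison. Among those at q under 0.01, falls went to 0 of the oxidoreductases, 1 of ER-associated degradation, 1 of glycan trimming, 1 of the mitochondrial chaperones and 5 of the cell cycle list, and rises to 1 of the cytosolic chaperones, 1 of the ribosomal proteins, 3 of the iron list, 2 of the endothelial markers and 0 of coagulation. At the minimum of 5 FPKM the serpin falls numbered 7, the cell cycle falls 4 and the mitochondrial synthetase rises 2.

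No paired analysis was possible because the table holds 1 pooled value per group and the labels give no replicate numbers. For the same reason leaving out a library was not run, and whether 1 library carries a group's value was not tested. The depth behind each FPKM is unknown, so no interval is given, and loci over the depth limit, BiP and GRP94 among them, could not be read.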
